A study of Mus musculus with 42 samples.

Results

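The genes of the NF-kB pathway were followed in ribosome-bound RNA of the proximal tubule and in total RNA of obstructed mouse kidneys. They are 34 genes picked by symbol: the Rel subunits, the IkB family, the kinases and their scaffold, CD40 with its adaptors, the regulator A20 with its partners, and the targets Icam1 and Tnfaip2. All 34 were found among the 40701 gene symbols of the count table, and all 34 passed the filter on low counts in every fit. For some of them, named below, passing in the fit of the tubule fraction rested on the obstructed kidneys. The same held for Tnip3 in the fit of total RNA. The samples came from the renal cortex of mice aged 12 weeks, male and female, after ureteral obstruction. Kidneys were either contralateral, labelled healthy controls, or obstructed for 5 days or for 10 days. PT libraries hold RNA bound to beads carrying anti-GFP antibodies (translating ribosome affinity purification, TRAP), which pulls down GFP-tagged ribosomes with the RNA they hold. Total libraries are labelled total kidney, and the labels do not say whether they hold the unbound RNA of the same extract. The labels name no strain, no promoter or Cre that directs the tag, and no day for the contralateral kidneys. Each state had 7 libraries in PT and 7 in Total, 4 male and 3 female, 42 libraries in all. Nothing in the labels says that the libraries of a group came from separate animals, so p-values measure the spread between these libraries.

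NF-kB is a family of dimeric transcription factors that wait in the cytoplasm, bound by IkB proteins. Receptors of the TNF, interleukin 1 and Toll-like families act through TRAF adaptors and ubiquitin ligases on the IkB kinase, which marks IkB for breakdown and frees the dimers. In the noncanonical branch the kinase NIK has the precursor of Nfkb2 cut to its active form, which pairs with RelB. Several targets of NF-kB encode its own inhibitors, and in injured kidney tubules the pathway is known for driving chemokines and adhesion molecules.

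Promoters were looked at because several genes of the pathway are textbook targets of NF-kB themselves. RefSeq windows of the mouse genome (GRCm38.p6), from 250 bases before to 50 bases after a start site, were at hand for 27 of the 34 genes, and not for Nfkb1, Relb, Nfkbiz, Ikbkb, Map3k8, Cd40 and Ripk2. The degenerate kappaB consensus, of 10 letters, was searched on both strands. It matched a window of 12 of the 27 genes (44.4%), against 9.55% of the 27025 genes with a window. A stricter pattern, GGG then any 2 bases then TTTCC, also searched on both strands, matched 7 of the 27 (25.9%), against 1.89% of all genes. The patterns overlap: of the 7 genes Traf2 met the stricter pattern alone, and the others met both. A match describes these letters and is not a measured binding site. The 5 genes below had a match and the largest changes in PT at day 10; capitals mark the match, and each stretch is written 5′ to 3′ on the strand of its gene. Positions count from the start site, and negative ones lie before it.
Nfkbid, chr7:30422156-30422239, plus strand, match at -226: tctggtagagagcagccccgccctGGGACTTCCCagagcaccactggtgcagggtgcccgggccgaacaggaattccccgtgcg
Tnip3, chr6:65590294-65590397, plus strand, match at -54: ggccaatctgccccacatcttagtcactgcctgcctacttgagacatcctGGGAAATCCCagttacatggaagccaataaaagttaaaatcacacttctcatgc
Tnfaip3, chr10:19015411-19015472, minus strand, match at -12: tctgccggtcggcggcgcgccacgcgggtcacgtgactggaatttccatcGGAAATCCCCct
Bcl3, chr7:19822734-19822763, minus strand, match at 2: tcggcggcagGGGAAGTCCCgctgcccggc
Nfkbie, chr17:45555544-45555653, plus strand, match at -106: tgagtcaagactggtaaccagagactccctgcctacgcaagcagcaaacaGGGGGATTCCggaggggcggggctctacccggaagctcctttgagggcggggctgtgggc
Nfkbid held a further match at -181 and Tnfaip3 one at -125. Of the 5 shown, the Tnfaip3 match at -12 is the one that also meets the stricter pattern, read on the opposite strand.

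Library totals lay between 9.31 and 43.6 M counts, with a median of 18.5 M. Levels are counts per M counts (CPM), scaled by TMM composition factors within a fraction, and changes are log2 fold changes ± standard error with 7 libraries a side. A gene rose or fell where edgeR's quasi-likelihood test, adjusted by Benjamini-Hochberg over all genes tested, gave p under 0.05 and the change was at least 2-fold. Libraries stood apart in Lars2, the gene of a mitochondrial leucyl-tRNA synthetase, which ran from 11.14 to 15.27 (log2 CPM) in PT and from 10.90 to 15.06 in Total, with 3 Total libraries at or below 11.10 and none of the others under 12.44. The proximal tubule markers summed to a median of 21550.0 CPM in contralateral PT, 4803 CPM at day 5 and 5882 CPM at day 10, so they were present in PT in every state. Bulk RNA cannot tell fewer cells of a type from less RNA per cell.

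The first comparison asked which pathway genes changed in the tubule fraction under obstruction. In PT at day 5, 23 of the 34 genes rose and none fell, where 30.6% of all 14932 genes tested changed, 18.2% up and 12.4% down. The median change of the 34 was 1.54 (log2), against 0.05 over all genes. In PT at day 10, 24 rose and 1 fell, where 31.7% of all genes changed, 19.7% up and 12% down, and the median was 2.04 against 0.05. All 7 obstructed libraries lay above all 7 contralateral ones for 24 genes at day 5, where the same held for 14.0% of all genes, and for 24 genes at day 10, against 13.4%. The risen genes and the medians include Rel, Nfkbid, Map3k8, Cd40, Traf1 and Tnip3, whose contralateral PT medians were 0.0497 to 0.267 CPM. These genes passed the filter through their obstructed libraries, so a fall could hardly have been seen for them. The filter was the same for all genes tested. With library size as the only scaling, 28 rose at day 5 and 29 at day 10 and none fell. That scaling shifts the median gene by 0.47 and 0.44 and puts 83.2% of all calls at day 5 and 82.9% at day 10 on the higher side, where TMM puts 59.6% and 62.2%. Within the PT libraries of high Lars2 and of low Lars2, 23 and 24 genes changed at day 5, and 23 and 24 at day 10.

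**Figure D1:**
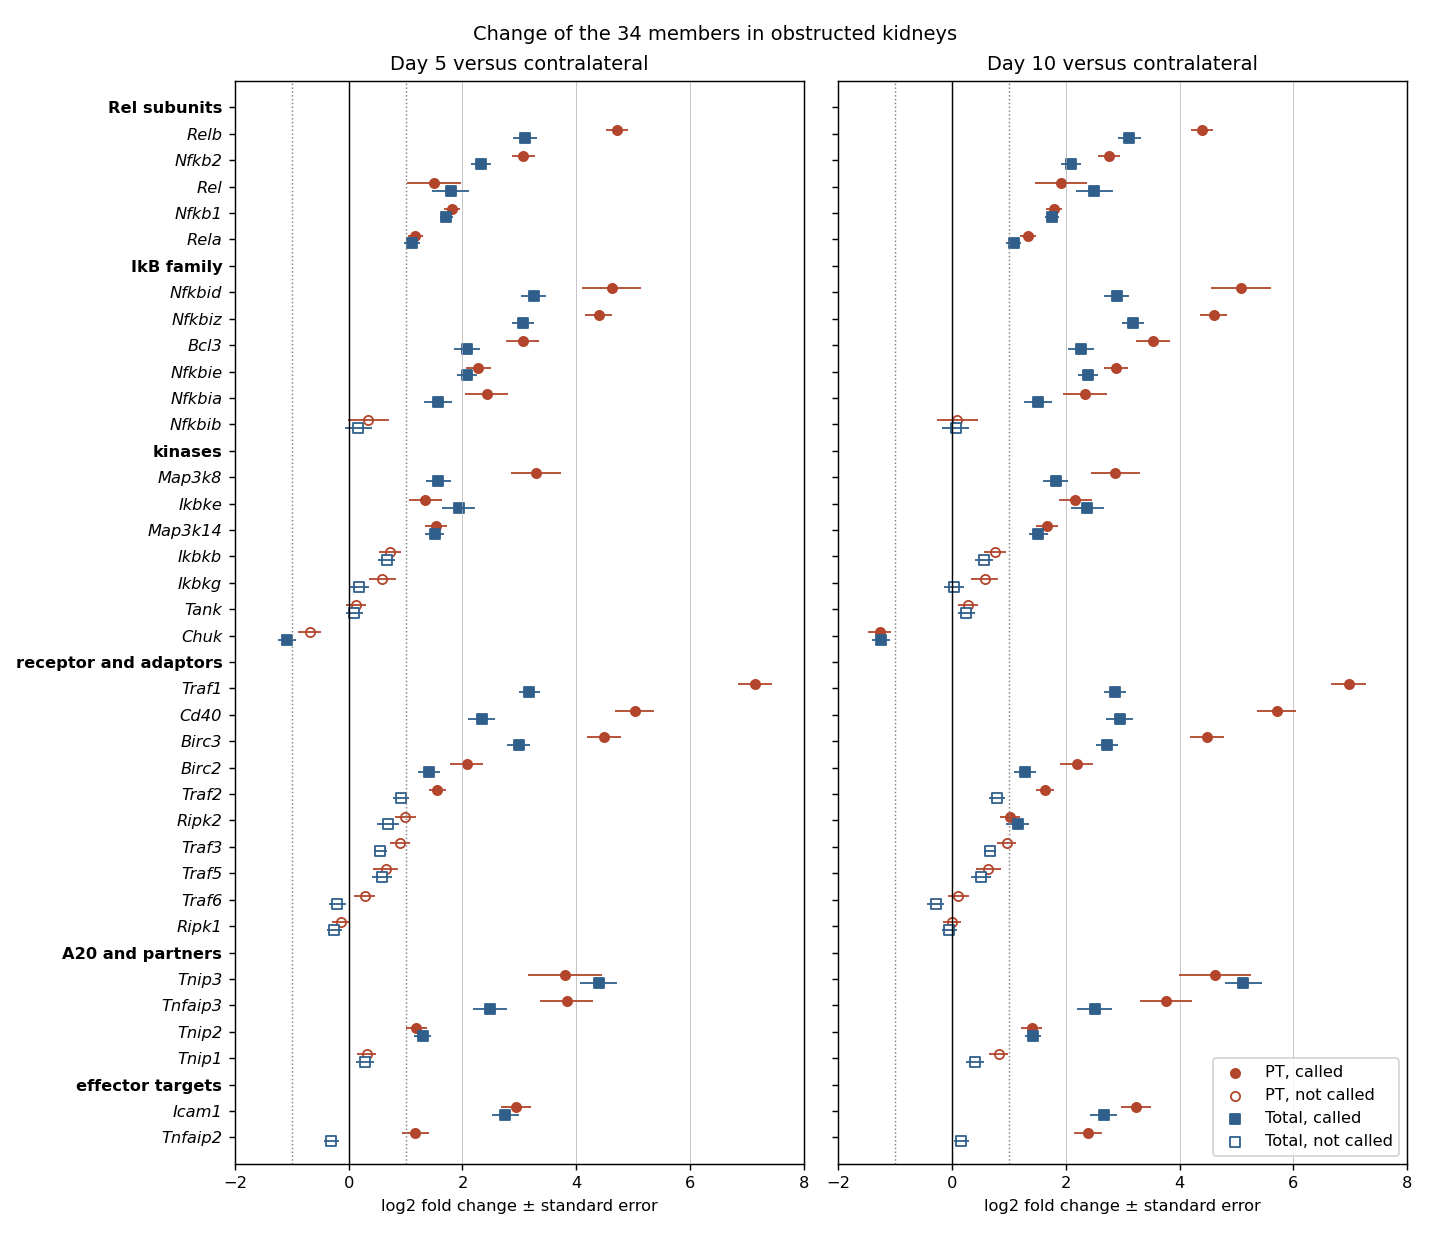
Change of the 34 genes against contralateral kidneys at day 5 (left) and day 10 (right), in PT (circles) and Total (squares), as log2 fold change with its standard error. Filled symbols passed the test and the 2-fold minimum marked by dotted lines. In PT 23 genes at day 5 and 24 at day 10 are filled on the right side, with Traf1 farthest out at 7.14 and 6.97, and Chuk is the only gene with a filled symbol on the left side.

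All 5 Rel subunits rose in PT on both days. Relb, the partner of the processed Nfkb2 product in the noncanonical branch, had 0.686 to 2.11 CPM (median 1.21) in contralateral PT, 30.5 to 36.8 CPM (median 32.4) at day 5 and 18.8 to 39.2 CPM (median 25.9) at day 10. Every obstructed library lay above the contralateral range, and the change was 4.72 ± 0.19 at day 5 (adjusted p = 1.06e-13) and 4.39 ± 0.19 at day 10 (adjusted p = 2.36e-13). Nfkb2 itself, whose product is both precursor and inhibitor, had 3.405 to 7.02 CPM (median 5.56) in contralateral PT, 38.2 to 52.8 CPM (median 47.1) at day 5 and 21.8 to 55.05 CPM (median 35.5) at day 10. The groups did not overlap, and the change was 3.07 ± 0.20 and 2.76 ± 0.20 (adjusted p = 1.14e-10 and 3.47e-10). Rel, the subunit best known from lymphocytes and myeloid cells, was the scarcest of the 5, with 0.0465 to 0.686 CPM (median 0.0995) in contralateral PT, 0.274 to 0.838 CPM (median 0.377) at day 5 and 0.369 to 1.22 CPM (median 0.492) at day 10. Its contralateral value rested on 19 counts over 7 libraries, 1 of which lay within the obstructed range, so the groups overlapped. Rel rose by the test nonetheless (1.501 ± 0.47 and 1.92 ± 0.46, adjusted p = 0.0106 and 0.00128) but not on either day within the PT libraries of high Lars2 (adjusted p = 0.0615 and 0.0657), and without female contralateral PT replicate 1 its day 5 value was 2.28. Rela, the main activating subunit, had the highest counts of the 5 and the smallest change, at 98.9 ± 15.3 CPM at day 5 and 108 ± 15.5 CPM at day 10, against 43.7 ± 7.71 CPM in contralateral PT (mean ± SD, n = 7), a log2 change of 1.17 ± 0.14 and 1.33 ± 0.14. Nfkb1, the gene of the p50 precursor, changed by 1.82 ± 0.14 and 1.79 ± 0.14.

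Of the 6 IkB genes 5 rose in PT, and the 3 nuclear members, which bind dimers on DNA and do not hold them in the cytoplasm, changed most. Nfkbid, a nuclear IkB that acts with p50, had 0 to 0.418 CPM (median 0.0668) in contralateral PT, on 20 counts over 7 libraries, 3.42 to 5.44 CPM (median 4.05) at day 5 and 2.99 to 9.97 CPM (median 5.62) at day 10. Every obstructed library lay above the highest contralateral one, a change of 4.62 ± 0.52 and 5.08 ± 0.52 (adjusted p = 2.84e-07 and 6.9e-08). Nfkbiz, the coactivator of secondary response genes, had 0.458 to 0.845 CPM (median 0.651) in contralateral PT, 8.18 to 22.6 CPM (median 12.8) at day 5 and 8.73 to 23.3 CPM (median 14.6) at day 10, again with no overlap, and changed by 4.40 ± 0.24 and 4.59 ± 0.24 (adjusted p = 5.73e-12 and 2.56e-12). Bcl3, which can turn p50 and p52 dimers into activators, had 0.739 to 5.195 CPM (median 2.98) in contralateral PT, 17.1 to 29.3 CPM (median 21.8) at day 5 and 14.1 to 47.1 CPM (median 27.9) at day 10. These ranges did not overlap either, and the change was 3.06 ± 0.29 and 3.53 ± 0.29 (adjusted p = 2.04e-08 and 2.82e-09). Among the classical cytoplasmic inhibitors, Nfkbia rose by 2.42 ± 0.38 and 2.33 ± 0.38 and Nfkbie by 2.28 ± 0.21 and 2.88 ± 0.22. Nfkbib, the third classical inhibitor, did not pass, at 0.35 ± 0.36 and 0.09 ± 0.36, and its 3 ranges overlapped.

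The kinases divided by kind. Map3k8, the kinase held by the Nfkb1 precursor, had 0 to 0.401 CPM (median 0.103) in contralateral PT, on 20 counts over 7 libraries, 1.12 to 2.23 CPM (median 1.602) at day 5 and 0.865 to 1.79 CPM (median 1.22) at day 10. The groups did not overlap, and Map3k8 rose by 3.29 ± 0.43 and 2.87 ± 0.43 (adjusted p = 1.79e-06 and 9.74e-06), at day 10 by 4.33 within the PT libraries of high Lars2 and by 1.67 within those of low Lars2. Ikbke, the inducible IkB kinase relative, had 1.07 to 2.21 CPM (median 1.47) in contralateral PT, 2.57 to 6.55 CPM (median 3.95) at day 5 and 2.75 to 13.3 CPM (median 5.69) at day 10. It rose by 1.35 ± 0.29 and 2.17 ± 0.30 (adjusted p = 0.000616 and 2.94e-06), with no overlap. Map3k14, the gene of NIK, had 3.05 to 9.35 CPM (median 4.83) in contralateral PT, 10.5 to 18.1 CPM (median 14.7) at day 5 and 10.7 to 24.3 CPM (median 14.3) at day 10. It rose by 1.53 ± 0.19 and 1.66 ± 0.19 (adjusted p = 9.29e-07 and 2.84e-07), and all obstructed libraries lay above the contralateral ones. The constant parts of the IkB kinase complex did not rise past the minimum with TMM factors. Ikbkb, the catalytic subunit of the canonical branch, changed by 0.73 ± 0.19 and 0.75 ± 0.19, and the scaffold Ikbkg by 0.59 ± 0.24 and 0.57 ± 0.24. Both passed on both days with library size as the only scaling, at 1.21 and 1.21 for Ikbkb and 1.07 and 1.07 for Ikbkg. Chuk, the catalytic subunit of the noncanonical branch, had 83.96 to 171 CPM (median 130.5) in contralateral PT, 45.4 to 103 CPM (median 88.8) at day 5 and 31.2 to 95.3 CPM (median 50.98) at day 10. The groups overlapped, and Chuk fell at day 10 (-1.28 ± 0.21, adjusted p = 2.24e-05) but not past the minimum at day 5 (-0.69 ± 0.20). With library size as the only scaling its day 10 value was -0.82, and within the PT libraries of low Lars2 it was -0.96, both short of 2-fold. Tank, an adaptor of the kinase Ikbke, changed by 0.13 ± 0.18 and 0.28 ± 0.18 and did not pass.

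Among CD40 and the adaptors, the changes ran from the largest of the 34 to none that passed. Traf1, an adaptor without the ubiquitin ligase domain of its relatives, had 0.114 to 0.823 CPM (median 0.267) in contralateral PT, on 44 counts over 7 libraries, 36.7 to 55.6 CPM (median 45.4) at day 5 and 24.5 to 52.2 CPM (median 44.6) at day 10. The lowest obstructed library lay above the highest contralateral one, and the change was 7.14 ± 0.30 and 6.97 ± 0.30 (adjusted p = 1.76e-13 and 2.27e-13). Cd40, a TNF receptor family member that feeds both branches, had 0.0465 to 0.401 CPM (median 0.149) in contralateral PT, on 18 counts over 7 libraries, 2.86 to 7.54 CPM (median 5.05) at day 5 and 4.25 to 13.4 CPM (median 6.18) at day 10. No ranges of obstructed and contralateral libraries touched, and it rose by 5.03 ± 0.34 and 5.70 ± 0.34 (adjusted p = 2.2e-10 and 2.68e-11). Birc3, a ubiquitin ligase that restrains NIK, had 2.54 to 4.44 CPM (median 2.89) in contralateral PT, 43.2 to 104 CPM (median 72.7) at day 5 and 40.2 to 130.3 CPM (median 62.9) at day 10. It rose by 4.49 ± 0.30 and 4.48 ± 0.30 (adjusted p = 1.73e-10 and 1.44e-10) with no overlap, and its paralog Birc2 by 2.07 ± 0.28 and 2.19 ± 0.28. Traf2, which recruits these ligases, rose by 1.56 ± 0.15 and 1.63 ± 0.15. Traf3, which brings NIK to that complex, lay above the contralateral range in all obstructed libraries but stayed short of 2-fold (0.90 ± 0.17 and 0.96 ± 0.17). Traf5, Traf6 and Ripk1 did not pass, with changes from -0.13 (Ripk1, day 5) to 0.65 (Traf5, day 5). Ripk2, the kinase that serves the NOD receptors, stood at the edge of the minimum: it rose at day 10 (1.02 ± 0.18), fell just short at day 5 (1.00 ± 0.18), and leaving out any of 6 libraries brought the day 10 value under 2-fold, to between 0.91 and 1.00. Traf3 (1.38 and 1.41), Traf5 (1.14 and 1.07) and, at day 5, Ripk2 (1.47) passed with library size as the only scaling. Ripk2 also passed at day 5 with upper-quartile factors (1.07), DESeq2 (1.01) and limma-voom (1.03). The same held when single libraries, such as female contralateral PT replicate 1 (1.11), were left out. With upper-quartile factors Traf3 passed at day 10 (1.05). Traf3 also passed without female contralateral PT replicate 3 on both days (1.09 and 1.14) and without male day 10 PT replicate 2 at day 10 (1.001).

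A20 and its partners split as well. Tnfaip3, the gene of the ubiquitin-editing enzyme A20, had 1.02 to 2.45 CPM (median 1.44) in contralateral PT, 8.97 to 32.8 CPM (median 27.2) at day 5 and 6.99 to 40.6 CPM (median 14.9) at day 10. All obstructed libraries lay above the contralateral ones although they varied widely among themselves, and it rose by 3.83 ± 0.46 and 3.76 ± 0.46 (adjusted p = 1.04e-06 and 1.15e-06). Tnip3, an A20-binding protein, had 0 to 0.463 CPM (median 0.0497) in contralateral PT, on 12 counts over 7 libraries, 0.493 to 1.68 CPM (median 0.684) at day 5 and 1.01 to 2.66 CPM (median 1.65) at day 10. It rose by 3.80 ± 0.65 and 4.62 ± 0.63 (adjusted p = 5.06e-05 and 2.79e-06), and no libraries of the sides overlapped. Tnip2, another partner, had 5.26 to 10.9 CPM (median 6.87) in contralateral PT, 14.2 to 18.5 CPM (median 16.4) at day 5 and 12.4 to 24.7 CPM (median 18.6) at day 10, and rose by 1.19 ± 0.18 and 1.395 ± 0.18 (adjusted p = 9.43e-06 and 1.17e-06), also without overlap. Tnip1, the partner with the highest counts of the 3, did not pass, at 0.32 ± 0.16 and 0.81 ± 0.16, though at day 10 it did with library size as the only scaling (1.27).

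Both effector targets rose in PT. Icam1, the adhesion molecule that leukocyte integrins bind, had 1.302 to 4.87 CPM (median 2.64) in contralateral PT, 16.6 to 27.99 CPM (median 19.5) at day 5 and 15.9 to 40.2 CPM (median 22.3) at day 10. The sides did not overlap, and the change was 2.94 ± 0.26 and 3.23 ± 0.27 (adjusted p = 1.02e-08 and 2.65e-09). Tnfaip2, a gene induced by TNF in endothelium, had 1.08 to 3.04 CPM (median 1.99) in contralateral PT, 3.76 to 5.72 CPM (median 4.45) at day 5 and 4.803 to 15.2 CPM (median 14.2) at day 10. It too was higher in every obstructed library, by 1.17 ± 0.24 at day 5 and 2.38 ± 0.24 at day 10 (adjusted p = 0.000335 and 5.79e-08).

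Markers of macrophages, fibroblasts, lymphocytes, endothelium and neutrophils moved with these changes in PT. The 12 markers of other tubule segments went the other way. Their sum had a median of 222 CPM in contralateral PT, 67.1 CPM at day 5 and 77.2 CPM at day 10. Of 20 macrophage markers 18 of the 19 tested rose at each day, and their summed level ran from 11.4 to 17.9 CPM in contralateral PT (median 14.3), from 111 to 187 CPM at day 5 (median 134) and from 155 to 350.2 CPM at day 10 (median 187). The 15 fibroblast markers summed to a median of 17.1 CPM in contralateral PT, 223 CPM at day 5 and 232 CPM at day 10, and the 17 lymphocyte markers to 1.402 CPM in contralateral PT, 7.78 CPM at day 5 and 13.1 CPM at day 10. Of the 17 lymphocyte markers only 4 passed the filter and were tested, and these rose at each day, as did 12 of 13 fibroblast markers tested. With so low a contralateral sum, lymphocyte markers could pass mainly through obstructed libraries, where a fall could hardly be seen. The lymphocyte markers Cd2, Cd79a, Ms4a1 and Gzmb and the neutrophil markers Ly6g, Retnlg, Mmp8 and Ltf had 0 counts in all contralateral PT libraries. Endothelial markers summed to a median of 15.7 CPM in contralateral PT, 21.2 CPM at day 5 and 29.6 CPM at day 10, and neutrophil markers to 0.0763 CPM, 0.605 CPM and 1.04 CPM in the same order. The part of such cells in the rise of the 34 genes was not tested.

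**Figure D2:**
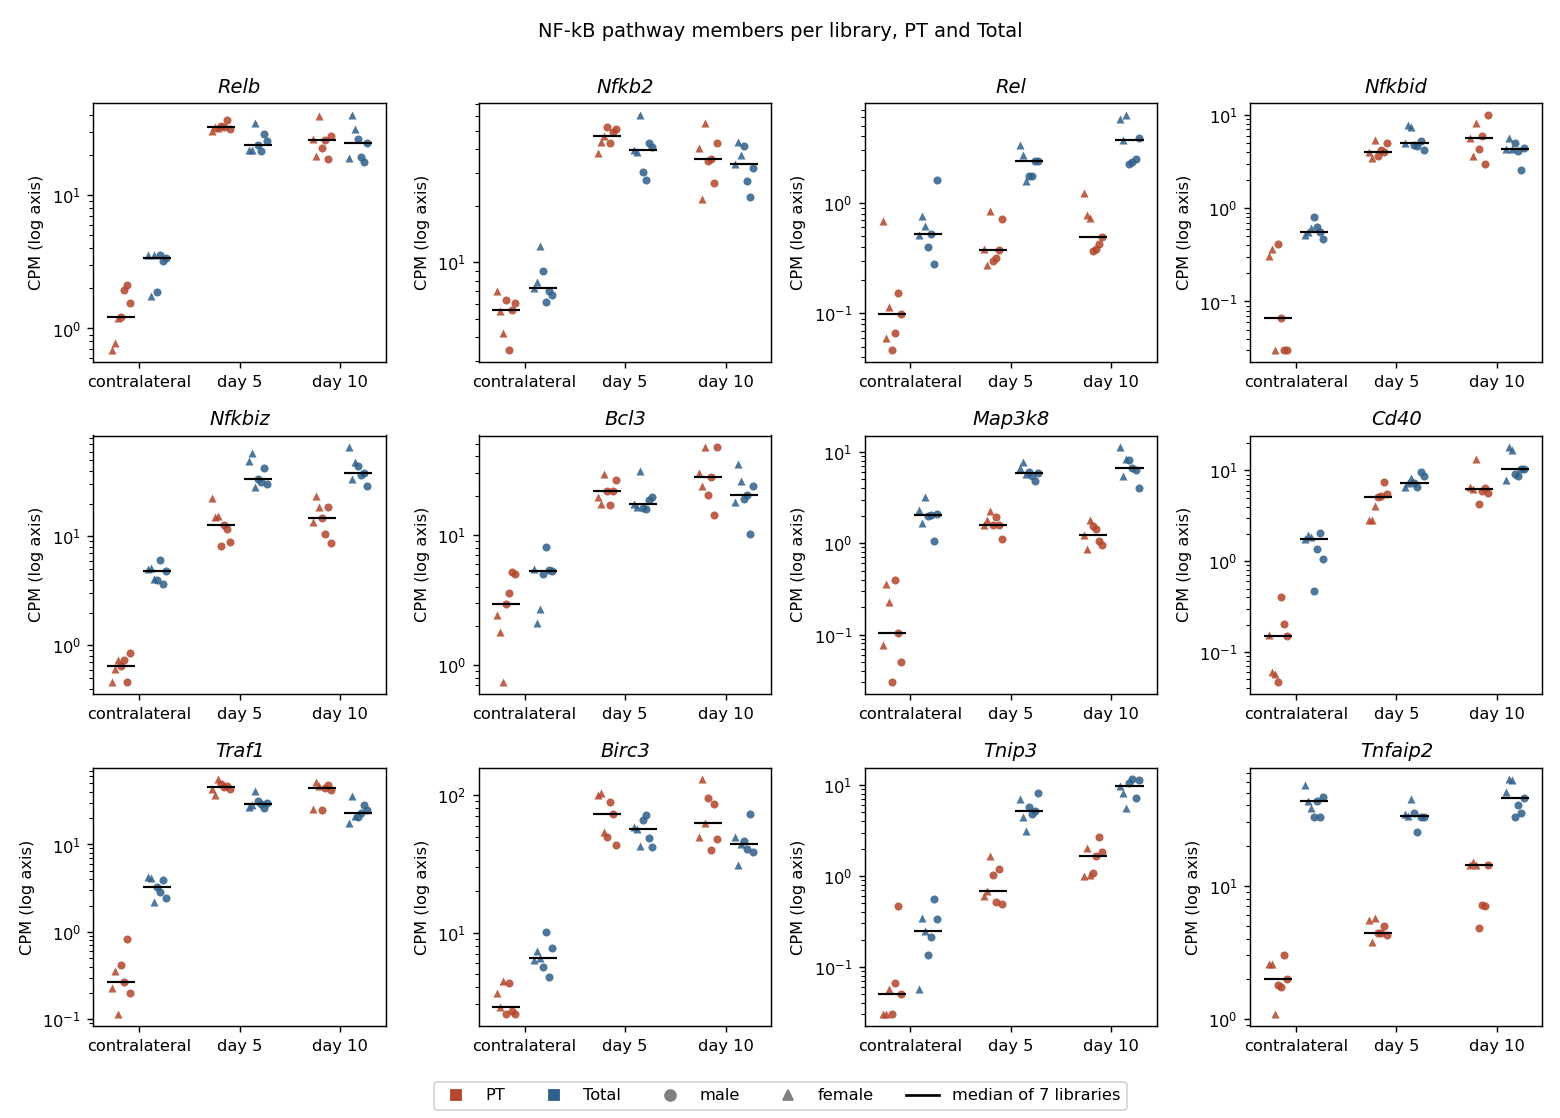
CPM of 12 genes in every library on log axes, by kidney state, in PT (red) and Total (blue), with circles for males, triangles for females and a black line at the median of 7 libraries. Each fraction is scaled on its own, and values of 0 are drawn at the bottom of the axis. In each panel for PT, except that of Rel, all obstructed libraries lie above all contralateral ones, and Tnfaip2 in Total shows overlapping groups.

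Day 10 was then set against day 5. In PT 1 of the 34 genes differed, where 0.442% of all genes did, 0.422% up and 0.0201% down. Tnfaip2 was higher at day 10 by 1.21 ± 0.23 (adjusted p = 0.0172), with 14.2 CPM as the median at day 10 and 4.45 CPM at day 5, and 6 of 7 day 10 libraries above the highest day 5 library. This call was lost without female day 5 replicate 1 or replicate 2 or female day 10 replicate 3 (adjusted p from 0.0510 to 0.0866), and within the PT libraries of low Lars2 (adjusted p = 0.230) and of high Lars2 (adjusted p = 0.260). All 34 genes overlapped between the days in PT and in Total, where 0.395% and 0.316% of all genes had every day 10 library above every day 5 one. The next largest day 10 changes against day 5 were those of Ikbke (0.82 ± 0.28) and Tnip3 (0.81 ± 0.43), and neither passed. In Total none of the 34 differed between the days, where 0.393% of all genes did (0.352% up and 0.0417% down), and 5 had an unadjusted p under 0.05. DESeq2 and limma-voom also called none there.

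The same question was asked of total RNA. At day 5 in Total, 21 of the 34 genes rose and 1 fell, where 32.5% of all 16782 genes tested changed, 19.2% up and 13.3% down, and the median change was 1.54 against 0.04 over all genes. At day 10 in Total, 22 rose and 1 fell, where 34.6% of all genes changed, 20.9% up and 13.8% down, and the median was 1.51 against 0.06. All obstructed Total libraries lay above all contralateral ones for 22 genes at day 5, against 15.4% of all genes, and for 23 at day 10, against 16.1%. These counts and medians include Tnip3, which passed the filter in Total through its obstructed libraries, so a fall could hardly have been seen for it. Without the 3 Total libraries of lowest Lars2, 22 genes changed at day 5 and 23 at day 10, the same counts as with them. With library size as the only scaling 26 genes rose at day 5 and 24 at day 10 and none fell, the median gene shifted by 0.44 and 0.36, and 80.4% and 76.0% of all calls were on the higher side, where TMM puts 59.1% and 60.3%. The replicate numbers paired contralateral with day 10 libraries in Total, and with the number as a block the day 10 count stayed at 23.

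In Total the noncanonical subunits rose again. Relb had 1.75 to 3.56 CPM (median 3.397) in contralateral Total, 21.5 to 34.8 CPM (median 23.9) at day 5 and 17.6 to 40 CPM (median 24.9) at day 10, and rose by 3.10 ± 0.21 and 3.12 ± 0.21 (adjusted p = 2.08e-11 and 1.27e-11). Nfkb2 had 6.12 to 12.2 CPM (median 7.33) in contralateral Total, 27.6 to 60.8 CPM (median 39.8) at day 5 and 22.4 to 43.8 CPM (median 33.6) at day 10, and rose by 2.33 ± 0.18 and 2.09 ± 0.18. Neither gene had an obstructed library within the contralateral range. Rel had 0.281 to 1.599 CPM (median 0.528) in contralateral Total, 1.59 to 3.34 CPM (median 2.41) at day 5 and 2.27 to 6.23 CPM (median 3.69) at day 10, and rose by 1.79 ± 0.32 and 2.50 ± 0.32. Its groups overlapped at day 5, by 1 obstructed library, and were apart at day 10. Nfkb1 rose by 1.71 ± 0.11 and 1.75 ± 0.11, and Rela by 1.11 ± 0.14 and 1.08 ± 0.14. The Rela call was lost without female day 5 Total replicate 3 at day 5 (0.98) and without female contralateral Total replicate 3 at day 10 (0.99).

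The nuclear IkB genes rose in Total too. Nfkbid had 0.466 to 0.804 CPM (median 0.563) in contralateral Total, 4.19 to 7.89 CPM (median 5.03) at day 5 and 2.58 to 5.69 CPM (median 4.35) at day 10, a change of 3.25 ± 0.22 and 2.89 ± 0.22. Nfkbiz had 3.66 to 6.12 CPM (median 4.86) in contralateral Total, 28.6 to 58.3 CPM (median 33.8) at day 5 and 29.2 to 65.8 CPM (median 38.1) at day 10, a change of 3.07 ± 0.19 and 3.17 ± 0.19. Bcl3 had 2.09 to 8.13 CPM (median 5.33) in contralateral Total, 15.7 to 31.2 CPM (median 17.1) at day 5 and 10.2 to 34.9 CPM (median 20.3) at day 10, a change of 2.08 ± 0.23 and 2.26 ± 0.23. All 3 genes were apart from the contralateral libraries on both days. Nfkbia rose by 1.57 ± 0.25 and 1.51 ± 0.24, with 1 day 10 library inside the contralateral range, and Nfkbie by 2.08 ± 0.17 and 2.39 ± 0.18. Nfkbib did not pass in Total (0.17 ± 0.24 and 0.06 ± 0.24).

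Among the kinases in Total, Map3k8 had 1.05 to 3.19 CPM (median 2.06) in contralateral Total, 4.82 to 7.84 CPM (median 5.89) at day 5 and 4.07 to 11.2 CPM (median 6.596) at day 10, and rose by 1.57 ± 0.22 and 1.82 ± 0.22. Ikbke had 1.05 to 2.85 CPM (median 1.23) in contralateral Total, 3.01 to 7.16 CPM (median 6.02) at day 5 and 4.72 to 14.1 CPM (median 6.13) at day 10, and rose by 1.93 ± 0.29 and 2.37 ± 0.29. Map3k14 had 4.301 to 10.1 CPM (median 6.54) in contralateral Total, 12.2 to 23.4 CPM (median 15.6) at day 5 and 12.9 to 21.9 CPM (median 16.5) at day 10, and rose by 1.51 ± 0.17 and 1.51 ± 0.17. None of these 3 genes overlapped between obstructed and contralateral Total libraries. Chuk fell on both days (-1.09 ± 0.16 and -1.25 ± 0.16) and at day 10 all obstructed libraries lay below the contralateral ones. With library size as the only scaling these values were -0.62 and -0.87, short of 2-fold, and without female day 5 Total replicate 3 the day 5 value was -0.97. Ikbkb, Ikbkg and Tank did not pass in Total, with changes from 0.03 (Ikbkg, day 10) to 0.66 (Ikbkb, day 5); with library size as the only scaling Ikbkb passed at day 5 (1.11).

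The adaptors in Total followed with Traf1 at 2.21 to 4.29 CPM (median 3.28) in contralateral kidneys, 26.01 to 41.5 CPM (median 29) at day 5 and 17.7 to 36.1 CPM (median 23.1) at day 10, a rise of 3.18 ± 0.19 and 2.86 ± 0.19. Cd40 had 0.469 to 2.04 CPM (median 1.77) in contralateral Total, 6.62 to 9.59 CPM (median 7.27) at day 5 and 7.92 to 18 CPM (median 10.3) at day 10, a rise of 2.34 ± 0.23 and 2.95 ± 0.24. Birc3 had 4.78 to 10.1 CPM (median 6.51) in contralateral Total, 41.7 to 72.1 CPM (median 57.02) at day 5 and 31 to 73.4 CPM (median 43.99) at day 10, a rise of 2.99 ± 0.20 and 2.72 ± 0.20. The sides of these 3 genes did not overlap. Birc2 rose by 1.41 ± 0.19 and 1.28 ± 0.19, and Ripk2 rose at day 10 (1.15 ± 0.20) and missed the minimum at day 5 (0.69 ± 0.20). Traf2 and Traf3 lay above the contralateral range in every obstructed Total library yet stayed short of 2-fold (0.91 ± 0.14 and 0.78 ± 0.14 for Traf2, 0.56 ± 0.11 and 0.66 ± 0.11 for Traf3). Traf5, Traf6 and Ripk1 did not pass. Scaling by library size alone let Traf2 (1.35 and 1.14) and Traf3 (1.004 and 1.02) pass on both days, and Traf5 (1.03) and Ripk2 (1.14) at day 5.

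Tnfaip3 in Total had 1.37 to 3.81 CPM (median 2.18) in contralateral kidneys, 8.49 to 24.01 CPM (median 10.7) at day 5 and 7.86 to 25.5 CPM (median 11.04) at day 10, and rose by 2.49 ± 0.30 and 2.50 ± 0.30. Tnip3 had 0.0573 to 0.563 CPM (median 0.246) in contralateral Total, 3.09 to 8.11 CPM (median 5.17) at day 5 and 5.58 to 11.5 CPM (median 9.72) at day 10, and rose by 4.39 ± 0.33 and 5.12 ± 0.33, the largest changes among the 34 genes in Total. So low a contralateral level makes these changes imprecise, and a fall of Tnip3 could hardly have been seen. Tnip2 had 4.79 to 12.4 CPM (median 8.23) in contralateral Total, 16.7 to 25.02 CPM (median 17.1) at day 5 and 16.9 to 24.3 CPM (median 21.4) at day 10, and rose by 1.30 ± 0.14 and 1.43 ± 0.14. The sides were apart for these 3 genes. Icam1 had 1.72 to 7.55 CPM (median 2.92) in contralateral Total, 19.1 to 39.5 CPM (median 20.9) at day 5 and 22.4 to 28.1 CPM (median 23.3) at day 10, and rose by 2.76 ± 0.24 and 2.66 ± 0.24 with no overlap. Tnfaip2 had 32.7 to 57.1 CPM (median 43.3) in contralateral Total, 25.4 to 44.8 CPM (median 33.6) at day 5 and 32.6 to 62.8 CPM (median 45.9) at day 10. Its groups overlapped, and it did not pass (-0.30 ± 0.13 and 0.16 ± 0.13), like Tnip1 (0.28 ± 0.16 and 0.40 ± 0.16). Macrophage markers in Total summed to a median of 148 CPM in contralateral kidneys, 1583 CPM at day 5 and 2156 CPM at day 10, and all 20 rose at each day, and their part in these changes was not tested.

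PT was next compared with Total within each state, on levels scaled over all 42 libraries. In contralateral kidneys 8 of the 34 genes were lower in PT and none higher, where 24.1% of all 17110 genes tested differed, 1.16% higher and 22.9% lower. At day 5, 1 was higher and 5 were lower, where 27.8% of all genes differed, 4.02% of them upward and 23.8% downward, each as a share of all genes. At day 10, 6 were higher and 5 lower, where 30.1% differed, 7.07% higher and 23.0% lower. With library size as the only scaling none of the 34 was higher in PT at day 10 and 5 were lower, and 10.6% of all calls were on the higher side, where TMM puts 23.5%. RLE factors shifted the median gene at day 10 by -0.105 and left 2 genes higher in PT, and upper-quartile factors shifted it by -0.129 and left 1.

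Tnfaip2 showed the widest gap between the fractions in contralateral and day 5 kidneys, and Rel at day 10. It had 1.201 to 3.27 CPM (median 2.16) in contralateral PT against 28.96 to 51.6 CPM (median 38.6) in contralateral Total, a difference of -4.04 ± 0.21. At day 10 it had 5.47 to 17.7 CPM (median 15.6) in PT against 29.5 to 55.7 CPM (median 41.2) in Total, a difference of -1.78 ± 0.18, and at day 5 the difference was -2.59 ± 0.19. The PT range lay below the Total range in each state. Rel (-1.75 ± 0.43, -2.07 ± 0.35 and -2.29 ± 0.34 in contralateral, day 5 and day 10 kidneys), Map3k8 (-3.28 ± 0.36, -1.58 ± 0.27 and -2.20 ± 0.28) and Nfkbiz (-2.59 ± 0.24, -1.29 ± 0.19 and -1.13 ± 0.19) were lower in PT in all 3 states. The day 10 value of Nfkbiz was -0.94, short of 2-fold, without female day 10 Total replicate 1. Tnip3 was lower in PT at day 5 (-2.35 ± 0.35) and day 10 (-2.18 ± 0.34). Its contralateral difference of -1.72 ± 0.71 passed narrowly (adjusted p = 0.0453) and was lost with the replicate number, which paired the fractions there, as a block (adjusted p = 0.0559), and without any of 9 libraries. It was -2.65 without male contralateral PT replicate 3 and -2.80 without female contralateral PT replicate 3. With that block the count in contralateral kidneys stayed at 8, of which 7 were the same genes, and at day 10 it stayed at 11, all the same genes.

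Cd40, Traf1 and Nfkbid were lower in PT by at least 2-fold in contralateral kidneys and not afterwards. At day 5 Cd40 was still lower in PT, short of 2-fold (-0.57 ± 0.23, adjusted p = 0.0332). Cd40 had 0.04999 to 0.443 CPM (median 0.162) in contralateral PT against 0.427 to 1.81 CPM (median 1.602) in contralateral Total, a difference of -3.23 ± 0.35, and 4.84 to 14.9 CPM (median 7.195) in day 10 PT against 7.14 to 15.9 CPM (median 9.3) in day 10 Total. The fractions overlapped in both states, in contralateral kidneys only at the edge, where the highest PT library was level with the lowest Total one, and at day 10 the difference was -0.44 ± 0.22. Traf1 had 0.126 to 0.888 CPM (median 0.295) in contralateral PT against 1.99 to 3.88 CPM (median 2.99) in contralateral Total (-3.10 ± 0.28), and 27.9 to 60.7 CPM (median 47.4) in day 10 PT against 15.99 to 31.8 CPM (median 20.96) in day 10 Total (1.05 ± 0.19). Traf1 was lower in every contralateral PT library than in any contralateral Total one, and at day 10 the fractions overlapped. Nfkbid differed by -1.499 ± 0.46 in contralateral kidneys (-2.72 without male contralateral PT replicate 1) and by 0.72 ± 0.30 at day 10, where it was short of 2-fold. Genes higher in PT at day 10 were, beside Traf1, Tnip1 (1.19 ± 0.17), Birc2 (1.14 ± 0.25), Tnfaip3 (1.06 ± 0.37), Nfkbie (1.04 ± 0.19) and Birc3 (1.03 ± 0.24), and Tnfaip3 was also higher at day 5 (1.08 ± 0.37). All 6 lay close to the 2-fold minimum, and Tnip1 and Birc2 were the pair that DESeq2 and RLE factors still called. Leaving out 1 library ended the call of Nfkbie (4 libraries), Birc3 and Tnfaip3 (2 each), Birc2 and Traf1 (1 each), among these genes at day 10. Marker genes of other cells were set lower in PT than most of the 34: the medians of the macrophage list were -3.73, -4.37 and -4.13 in contralateral, day 5 and day 10 kidneys, those of the fibroblast list -3.74, -4.22 and -4.15 and those of the endothelial list -4.09, -3.98 and -3.63, against medians of -0.22, 0.22 and 0.34 over the 34 genes. Closest to these lists in contralateral kidneys were Tnfaip2 (-4.04), Map3k8 (-3.28), Cd40 (-3.23) and Traf1 (-3.10). The part of other cells in the PT levels of the 34 genes was not tested.

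**Figure D3:**
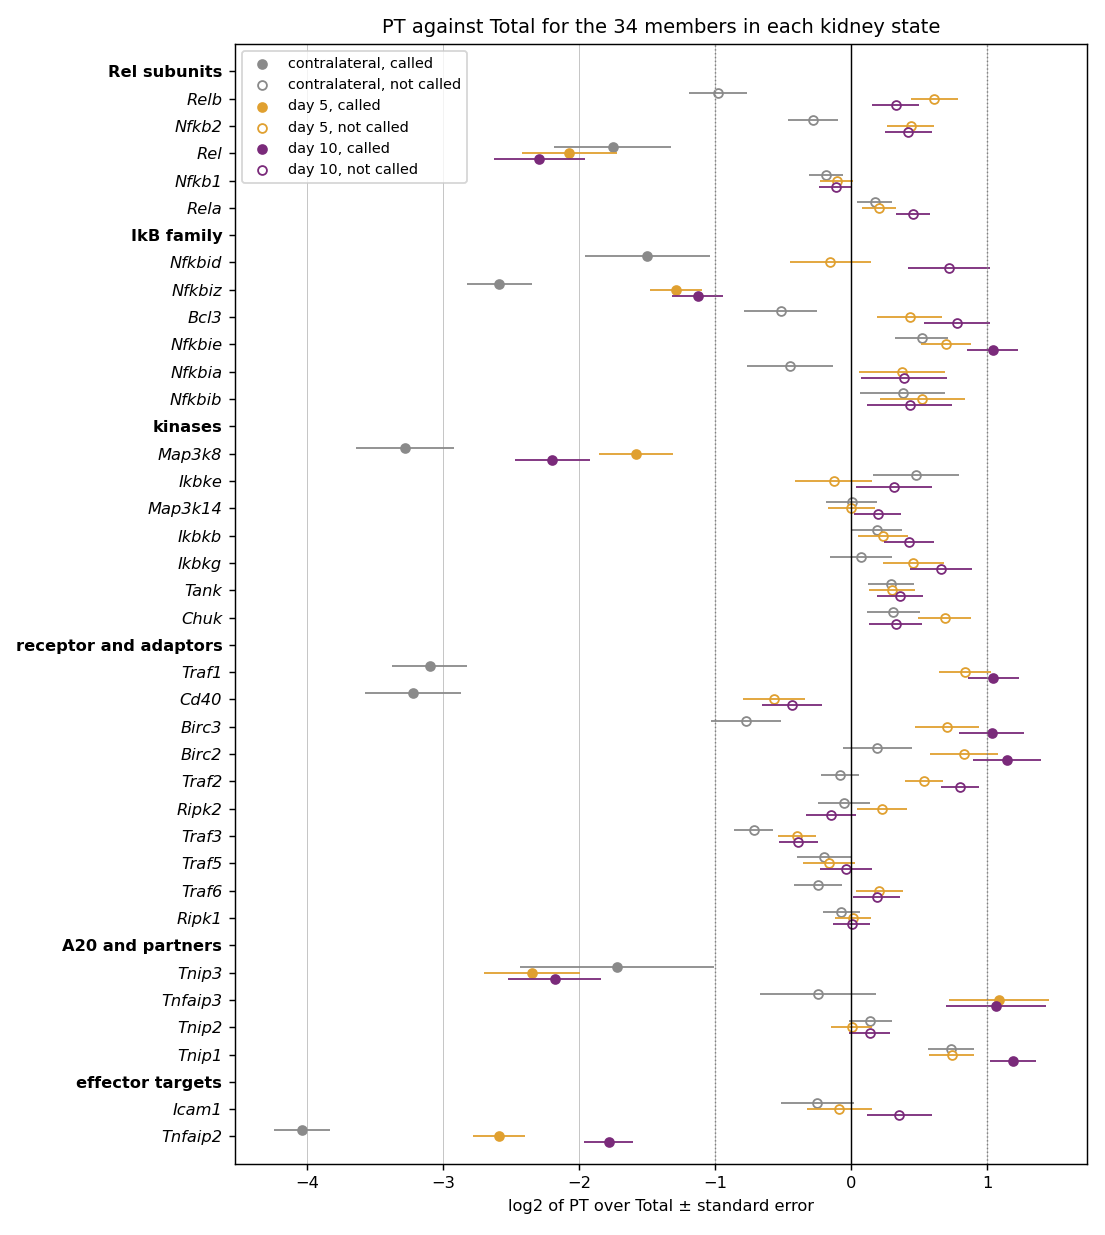
PT over Total for the 34 genes as log2 difference with its standard error, in contralateral (grey), day 5 (orange) and day 10 (purple) kidneys. Filled points passed the test and the 2-fold minimum at the dotted lines. Tnfaip2 lies farthest left in contralateral kidneys at -4.04, and Traf1 lies at -3.10 in contralateral kidneys and at 1.05 at day 10.

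The interaction of fraction and obstruction asked which genes changed by a different amount in PT than in Total. At day 5 the change was larger in PT for 7 of the 34 genes and smaller for none, where 4.27% of all genes differed, 3.02% upward and 1.24% downward. At day 10 it was larger in PT for 8 and smaller for none, where 5.76% differed, 4.68% upward and 1.08% downward. Since the 2 days share the contralateral libraries, their values are given side by side. Among the genes called, Traf1, Cd40, Map3k8 and Nfkbid had few counts in contralateral PT, which limits their values. Traf1 had the largest interaction, 3.94 ± 0.34 at day 5 and 4.15 ± 0.34 at day 10 (adjusted p = 8.29e-11 and 1.59e-11), from PT changes of 7.14 and 6.97 and Total changes of 3.18 and 2.86. Cd40 followed with 2.66 ± 0.43 and 2.79 ± 0.43 (adjusted p = 4.05e-05 and 1.22e-05). Tnfaip2, which rose in PT and did not pass in Total, had 1.45 ± 0.26 and 2.26 ± 0.26 (adjusted p = 0.000202 and 5.25e-08). These 3 genes, an adaptor, a receptor and a target, each started lower in PT than in Total. That contralateral difference is itself a term of the interaction, so it is no separate result. A lower start in PT was not theirs alone among the genes called here. In contralateral kidneys Map3k8 (-3.28), Nfkbiz (-2.59) and Nfkbid (-1.50) were lower in PT too. Relb (-0.98) and Birc3 (-0.77) were lower short of 2-fold, and Bcl3 (-0.52) did not pass. Rel and Tnip3 were also lower there, with no interaction called. Relb had 1.59 ± 0.27 and 1.31 ± 0.27 (adjusted p = 0.000104 and 0.00113), Birc3 1.48 ± 0.35 and 1.81 ± 0.35 (adjusted p = 0.00569 and 0.000455), and Nfkbiz 1.30 ± 0.31 and 1.46 ± 0.31 (adjusted p = 0.00514 and 0.00116). Map3k8 passed at day 5 (1.70 ± 0.45, adjusted p = 0.0158) and not at day 10 (1.09 ± 0.45, adjusted p = 0.145), but without male contralateral PT replicate 2 it passed at day 10 too (1.699, adjusted p = 0.00982). Nfkbid passed at day 10 (2.22 ± 0.55, adjusted p = 0.0068) and not at day 5 (1.35 ± 0.55, adjusted p = 0.199). Without male contralateral PT replicate 1 Nfkbid passed on both days, at 2.57 (adjusted p = 0.00383) and 3.44, and limma-voom called its day 5 value too (2.12, adjusted p = 0.0367). The difference between the days was not tested for either gene.

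Bcl3 passed at day 10 (1.30 ± 0.36, adjusted p = 0.0181) and not at day 5 (0.95 ± 0.36, adjusted p = 0.152); its day 10 call was lost without male day 10 Total replicate 3, without female contralateral Total replicate 1 and without female contralateral PT replicate 3 (adjusted p from 0.0502 to 0.106). The Bcl3 call at day 10 was also lost with RLE factors, with no filter, with limma-voom and with only the groups compared in the fit (adjusted p from 0.0516 to 0.0827). At day 5 Bcl3 passed without female day 5 Total replicate 3 (1.22, adjusted p = 0.0483). The day 5 call of Nfkbiz was lost with limma-voom (adjusted p = 0.0593). Tnfaip3 had values of similar size, 1.33 ± 0.56 and 1.31 ± 0.56, and did not pass (adjusted p = 0.228 and 0.172), but with Lars2 as a covariate the day 5 value did (adjusted p = 0.0125). The same covariate let Nfkbia pass at day 10 (1.14, adjusted p = 0.00122). Traf2 stayed short of 2-fold at day 10 (0.88 ± 0.20, adjusted p = 0.00262). It passed without female day 10 Total replicate 2 (1.05) or female contralateral PT replicate 2 (1.02). Birc2 passed at day 10 without male day 10 PT replicate 2 (1.07, adjusted p = 0.0378). The interactions of the other Rel subunits were 0.08 and 0.07 for Nfkb1, 0.72 and 0.70 for Nfkb2, 0.03 and 0.28 for Rela and -0.32 and -0.54 for Rel, none of which passed. On log2(RPKM + 1), where low levels weigh little, the interaction of Cd40 was -0.12 and -0.11 and that of Nfkbiz -0.58 and -0.49, with the sign turned, that of Map3k8 at day 5 was -0.41, and Traf1 was the 1 gene called at day 5. At day 10 that scale called Traf1, Birc3 and Tnip3, of which Tnip3 changed less in PT (-1.19, adjusted p = 3.16e-08) and is not among the 8 above.

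The interaction of sex and obstruction was not called for any of the 34 genes. In PT the adjusted p was never below 0.438 at day 5, where 0.502% of all genes were called (0.295% positive and 0.208% negative), or 0.302 at day 10, where 0.208% were (0.161% and 0.0469%). In Total it was never below 0.0941 at day 5, where 0.590% were called (0.340% and 0.250%), or 0.362 at day 10, where 0.185% were (0.131% and 0.0536%). At an unadjusted p under 0.05 there were 2 genes in PT at day 5, 4 in PT at day 10, 6 in Total at day 5 and 4 in Total at day 10, and limma-voom called none. DESeq2 called 1 gene, Tnip2 (1.04, adjusted p = 0.0172), in Total at day 5 and none elsewhere. Bcl3 had values, female minus male, of 1.37 ± 0.55 and 1.65 ± 0.55 in PT and 1.08 ± 0.45 and 1.31 ± 0.45 in Total, none of which passed, and the days share their contralateral libraries. Tnip3 had the largest value in PT, 2.77 ± 1.45 at day 5, and its 3 female contralateral PT libraries held 1 count in all.

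Levels per length were read from RPKM, which the authors scaled by the library total alone. In PT the gene with the highest level was Nfkbia, at 37.3 ± 15.7 RPKM in contralateral kidneys, 281 ± 94.9 at day 5 and 250 ± 135 at day 10 (mean ± SD, n = 7). Its libraries ran from 114 to 526 RPKM at day 10 and lay above those of every other gene, the highest of which was 55.6 RPKM for Rela. Rela came next at day 10, at 43.6 ± 7.1 RPKM, followed by Nfkbib at 33.1 ± 14.1, Nfkbie at 30.9 ± 10.1, Birc2 at 30.1 ± 16.6 and Tnip1 at 29 ± 10.8. These 5 overlapped one another in their libraries. In contralateral PT the order was Nfkbia, Nfkbib (23.6 ± 7.71), Chuk (21.7 ± 5.29), Rela (12.9 ± 1.67) and Tnip1 (12 ± 2.94). Chuk had 12.9 ± 6.16 RPKM at day 10, below 8 other genes and level with Bcl3 (12.9 ± 4.9). Traf1 took place 30 of 34 in contralateral PT, at 0.0535 ± 0.031 RPKM, place 12 at day 5, at 10.2 ± 0.979 RPKM, and place 14 at day 10, at 8.84 ± 2.91 RPKM. Rel took place 31 in contralateral PT, at 0.0514 ± 0.0694 RPKM, and had 0.248 ± 0.121 RPKM at day 10, where it was last, just below Map3k8 (0.31 ± 0.0945 RPKM) and Tnip3 (0.458 ± 0.208 RPKM).

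**Figure D4:**
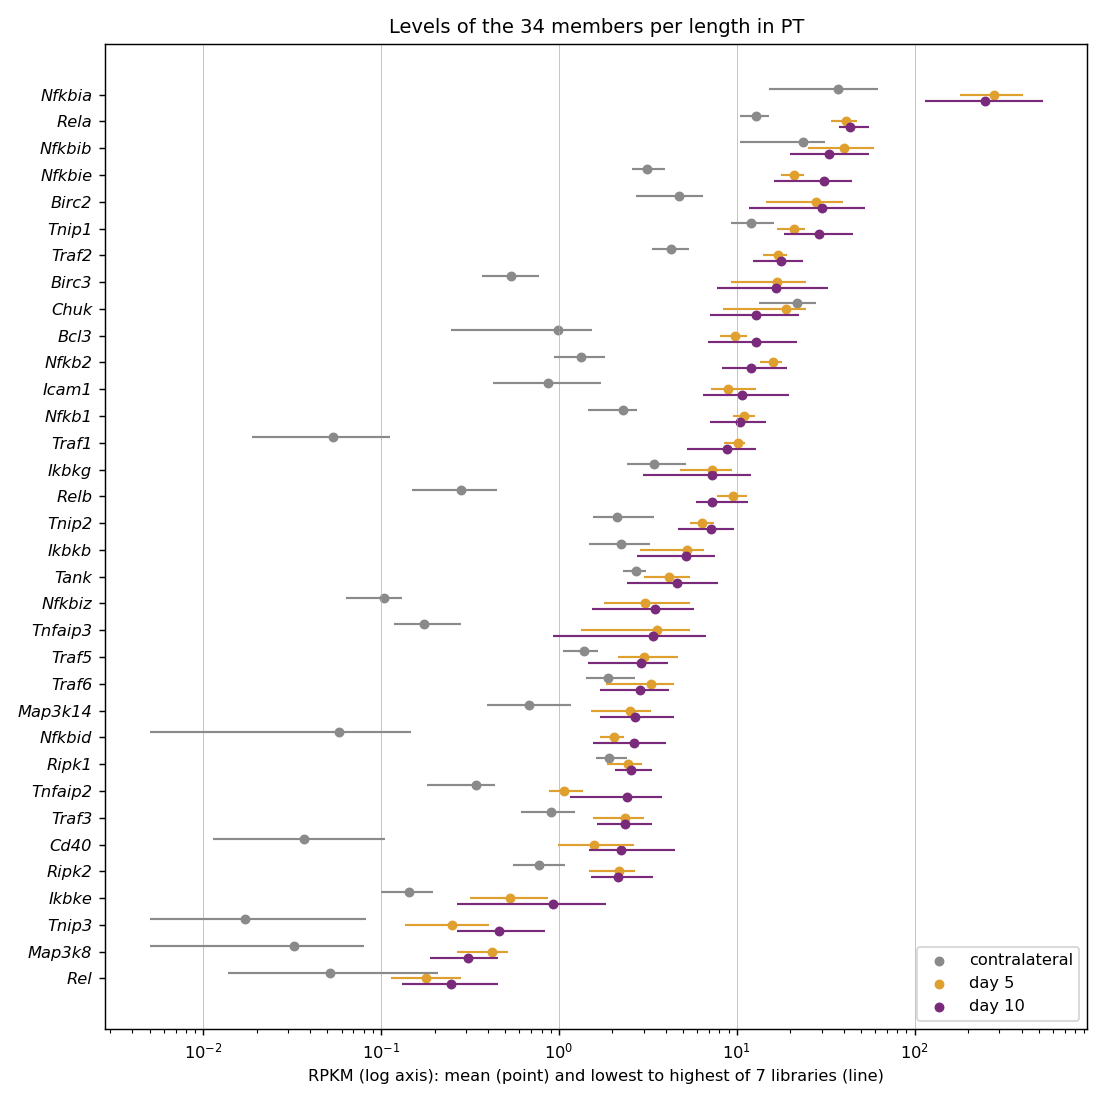
RPKM of the 34 genes in PT on a log axis, ordered by the mean at day 10, as the mean (point) and the lowest to highest of 7 libraries (line) in contralateral (grey), day 5 (orange) and day 10 (purple) kidneys; lines that reach 0 are cut at the left edge. Nfkbia stands highest in each state and Rel lowest at day 10, and the spread between grey and coloured points is widest for Traf1.

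Other genes of the pathway were read in PT at day 10 beside the 31.7% of all genes that changed, 19.7% up and 12% down. Among receptors that feed NF-kB, 10 of 13 tested rose and none fell, with a median of 2.47, and the same list had 9 of 13 higher at day 5. Tlr2, a receptor for bacterial lipoproteins, rose by 5.93 ± 0.30, with 12.04 to 20.9 CPM (median 18.7) at day 10 against 0.103 to 0.569 CPM (median 0.232) in contralateral PT. From so low a level a fall of Tlr2 could hardly have been seen, so the receptor counts and median rest partly on the filter. Tnfrsf1b, the second TNF receptor, rose by 4.91 ± 0.47 and Tlr4, the receptor for endotoxin, by 4.78 ± 0.44. Of 29 signal transducers 4 rose and 1 fell, with a median of -0.05, against 0.05 over all genes. Among them the kinase Map3k1 rose by 3.10 ± 0.63 and the scaffold Bcl10 by 1.201 ± 0.14, the adaptor Ticam2 had 88 counts over 7 day 10 libraries and 2 over 7 contralateral ones, and Nod2, a sensor of bacterial wall fragments, fell by 3.31 on the log2 scale.

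Of 17 further negative regulators 4 rose and 1 fell in PT at day 10, a share near that of all genes, with a median of -0.15. Irak3, which blocks Toll-like receptor signals, rose by 3.34 ± 0.26, the RNase gene Zc3h12a by 1.77 ± 0.32 and Usp18, a protease for the ubiquitin-like ISG15, by 1.61 ± 0.31, and Nkiras1, an IkB-binding GTPase gene, changed by -1.24 ± 0.23. Of 35 textbook targets of NF-kB 26 passed the filter and were tested, with 20 higher, 1 lower and a median of 4.15. Tnf, Csf2, Bcl2a1b, Ptgs2 and Tnfsf11 had 0 counts in all contralateral PT libraries. Any of these that was tested passed through obstructed libraries and could not have been lower, so the share and the median rest partly on the filter. Vcam1, an adhesion molecule, rose by 7.34 ± 0.24. The cytokine gene Tnf had 131 counts over the 7 day 10 libraries and 0 over the contralateral ones, and Ltb, the gene of lymphotoxin beta, had 225 at day 10 and 1 in contralateral PT. Sod2, mitochondrial superoxide dismutase and a textbook target, fell by 1.51 on the log2 scale, with 252 to 556 CPM (median 289.5) at day 10 against 705 to 1152 CPM (median 902) in contralateral PT. In Total at day 10, where 34.6% of all genes changed, 20.9% up and 13.8% down, the receptors had 10 of 14 higher and none lower, the transducers 5 of 31 higher and 1 lower, the negative regulators 5 of 17 higher and 2 lower and the targets 25 of 30 higher and 1 lower.

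Exons of 10 of the 34 genes overlap another gene in GENCODE M21, and the sources used here do not state whether counting used strand, so reads of such pairs cannot be told apart. The 10 are Bcl3, Icam1, Ikbke, Ikbkg, Map3k14, Nfkb2, Nfkbib, Ripk1, Tnfaip2 and Traf5. The partner is protein-coding for Ikbkg (G6pdx), Nfkb2 (Psd), Nfkbib (Sirt2 and Ccer2) and Ripk1 (Serpinb6a), and a noncoding gene for the others.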

How the data were processed

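RNA of 42 mouse kidney libraries was measured, 21 PT and 21 Total. Counts per gene were deposited by the authors, who, per the submitters' processing notes, used STAR 2.0.4b, Subread and featureCounts 1.4.5; the genome build, annotation and strand setting are not given in the sources used here. RPKM values were deposited by the authors too, and use the library total without composition factors. The members and lists were chosen with earlier results of these data known. Counts were tested with edgeR 4.0.16 (R 4.3.3): filterByExpr, TMM factors, a robust quasi-likelihood fit with one mean per sex, state and fraction, sexes averaged, and Benjamini-Hochberg adjustment over all genes of a fit. PT and Total were fitted alone for changes and together for comparisons between them. Standard errors are the log2 fold change over the root of F and are approximate. Values per library are given for up to 3 genes per role with the largest change in any state comparison of PT or Total and for genes called in an interaction; other lists name up to 3 called genes each way by their change in PT at day 10. The fit was tested on simulated data. Alternatives covered scaling, filters, thresholds, DESeq2 1.42.0, limma 3.58.1 on voom weights and on log2(RPKM + 1), Lars2, the replicate number as a block and leaving out each library. The numbers paired samples, by correlations over 0.1 in all 7 pairs, for contralateral with day 10 in Total (0.153 to 0.357) and for PT with Total in contralateral (0.288 to 0.439) and day 10 kidneys (0.193 to 0.677). Library totals ran from 9.31 to 43.6 M, which leaves genes with a few counts in contralateral PT imprecise.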

Additional observations from a re-analysis of the deposited data

Results flagged for a closer look

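The 4 male libraries of each group were looked at gene by gene, which gave 204 sets. In 15 of them 1 library stood apart from the others, relative to the range of the set, by Dixon's criterion. Chance gives this in about 5% of sets, and the sets share libraries, so they are not independent. Male day 10 Total replicate 3 was such a library for 3 genes. Its Ikbkg level was 83.29 CPM with the others at 34.35 to 37.18, its Ikbke level 14.08 CPM with the others at 4.725 to 6.13, and its Tnfaip3 level 25.52 CPM with the others at 7.862 to 10.42. In male day 5 PT replicate 4, Nfkb1 had 51.14 CPM with the others at 42.99 to 43.87, and Ikbkb 77.78 CPM with the others at 94.37 to 97.77. Male day 5 PT replicate 3 had 7.539 CPM of Cd40, with the others at 5.053 to 5.473. In contralateral PT, Nfkbid stood at 0.4184 CPM in male replicate 1 and Tnip3 at 0.463 CPM in male replicate 3, each with the others at 0 to 0.06676, Traf6 at 21.9 CPM in male replicate 2 with the others at 15.99 to 16.31, and Birc3 at 4.273 CPM in male replicate 2 with the others at 2.536 to 2.675. In contralateral Total, Bcl3 had 8.126 CPM in male replicate 2 with the others at 5.026 to 5.416, and Map3k8 1.055 CPM in male replicate 3 with the others at 2.01 to 2.065. Among obstructed Total libraries, Rel had 3.893 CPM in male day 10 replicate 4 with the others at 2.268 to 2.497, Nfkbie 35.96 CPM in male day 5 replicate 4 with the others at 27.17 to 27.59, and Icam1 19.07 CPM in male day 5 replicate 2 with the others at 20.6 to 20.86.

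The change under obstruction differed between PT and Total by the interaction test, as log2 of PT minus Total. At day 5 it was 1.59 for Relb, 1.30 for Nfkbiz, 1.70 for Map3k8, 2.66 for Cd40, 3.94 for Traf1, 1.48 for Birc3 and 1.45 for Tnfaip2. At day 10 it was 1.31 for Relb, 2.22 for Nfkbid, 1.46 for Nfkbiz, 1.30 for Bcl3, 2.79 for Cd40, 4.15 for Traf1, 1.81 for Birc3 and 2.26 for Tnfaip2.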

How the results depend on the processing

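The counts of called genes moved by over 1.5 times under these settings. The single gene that differed between day 10 and day 5 in PT became 0 at an adjusted p under 0.01, on log2(RPKM + 1) and within the PT libraries of low or of high Lars2. PT against Total gave 1 gene in contralateral kidneys on log2(RPKM + 1), against 8; at day 5 it gave 13 with a 1.5-fold minimum and 3 on log2(RPKM + 1), against 6; at day 10 it gave 7 with RLE factors, DESeq2 or only the groups compared, 6 with upper-quartile factors, 5 with library size only and 4 on log2(RPKM + 1), against 11. The interactions with fraction gave 1 gene at day 5 and 3 at day 10 on log2(RPKM + 1), against 7 and 8: Traf1 at day 5, and Traf1, Birc3 and Tnip3 at day 10, the last at -1.19 and not among the 8. In those fits 5 values turned sign: Nfkbiz (-0.58), Map3k8 (-0.41) and Cd40 (-0.12) at day 5, Nfkbiz (-0.49) and Cd40 (-0.11) at day 10. DESeq2 called 1 gene by sex in Total at day 5. The cause was not tested. Leaving out 1 library gave 23 to 25 genes in PT at day 5, 24 to 26 in PT at day 10, 0 to 1 between the days in PT, 20 to 22 and 22 to 23 in Total at day 5 and day 10, 7 to 9, 6 to 7 and 8 to 11 for PT against Total in contralateral, day 5 and day 10 kidneys, 7 to 8 and 7 to 9 for the interactions with fraction, and 0 by sex and between the days in Total. With the replicate number as a block the counts were 24, 25 and 1 in PT and 22, 23 and 0 in Total, 8, 6 and 11 for PT against Total, 7 and 8 for the interactions and 0 by sex; beside Tnip3 in contralateral kidneys it ended no call where the numbers paired samples. The planned division of PT libraries at the widest gap in Lars2 left 1 library on a side and was not run, and the division into low and high Lars2 was chosen after seeing the data. Low counts in contralateral PT limit the changes of Rel, Nfkbid, Map3k8, Cd40, Traf1 and Tnip3.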
